A study of Mus musculus with 15 samples.

Results

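The mouse myeloma cell line IL6Myc-3 was set against the line IL6Myc-4 in a direct pairwise comparison of their RNA. The comparison used the 3 libraries labelled IL6Myc-3 and the 3 labelled IL6Myc-4, 6 of the 15 libraries of the series. Both lines, and 3 further lines named IL6Myc-1, IL6Myc-2 and IL6Myc-5, came from mice of the IL6Myc genotype, an immunocompetent model of multiple myeloma. All 5 lines thus shared that genotype and the label of mouse myeloma cell line, and no treatment was given in the labels. Each line was represented by 3 technical replicates and was a single biological unit, so that all p-values here rest on technical spread. The promoters behind the genotype, the sex and age of the donor animals and whether a line was 1 clone were not given in the sources used here. Total RNA was extracted with the RNeasy mini kit and sequenced after TruSeq Stranded Total RNA library preparation.

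Multiple myeloma is a cancer of plasma cells, the antibody-secreting end stage of the B cell lineage, and IL-6 is a growth and survival factor for these cells. IL-6 binds the receptor chain encoded by Il6ra, recruits the shared chain encoded by Il6st and signals through Janus kinases to the transcription factor STAT3. In the Hedgehog pathway, ligand binding to Patched releases Smoothened from inhibition, and Smoothened controls the GLI transcription factors, with Gli1 and Ptch1 being among the pathway's best known target genes. Class I molecules of the major histocompatibility complex display peptides to CD8 T cells and are sensed by natural killer cells.

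Expression is reported in CPM, counts scaled to the TMM-corrected library size, and a gene's levels were compared between lines and not with those of other genes. The libraries held 23290784, 25372446 and 28957852 estimated counts in IL6Myc-3, against 26163997, 23993309 and 24547152 in IL6Myc-4. Across the 11773 tested genes, libraries of the same line correlated at Pearson's r of 0.996 to 0.997, against 0.96 to 0.962 between libraries of IL6Myc-3 and IL6Myc-4. The 18S ribosomal transcript took 0.448%, 0.158% and 0.279% of the counts in IL6Myc-3, against 0.384%, 0.373% and 0.328% in IL6Myc-4, so that the lines overlapped. Immunoglobulin transcripts took 6.39% to 6.67% of the counts in IL6Myc-3 and 4.61% to 5.12% in IL6Myc-4. Mitochondrial transcripts took 4.12% to 4.96% in IL6Myc-3 and 5.08% to 5.60% in IL6Myc-4.

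Both lines expressed the defining transcripts of plasma cells. The plasma cell transcription factors Irf4 and Prdm1 were at 964 ± 15.7 CPM and 172 ± 2.31 CPM in IL6Myc-3, against 1094 ± 19.3 CPM and 196 ± 11.3 CPM in IL6Myc-4 (SD, n = 3 technical replicates per line, here and below). Xbp1, which drives the secretory programme, was at 1711 ± 35.2 CPM in IL6Myc-3, against 1904 ± 28.4 CPM in IL6Myc-4. Igha, the IgA heavy chain constant gene, was at 25589 CPM in IL6Myc-3, against 17962 CPM in IL6Myc-4, and Igkc, the kappa constant gene, at 21100.2 CPM in IL6Myc-3, against 16178 CPM in IL6Myc-4. None of these genes differed by 2-fold between the 2 lines.

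Between the 2 lines, 1353 of 11773 genes (11.5%) were called, meaning that they differed by at least 1 log2 unit and passed an adjusted p of 0.05 (edgeR quasi-likelihood test). Of these, 658 were higher in IL6Myc-3 (5.59% of the genes tested) and 695 were lower (5.9%). At any size, 6237 genes (53%) passed the adjusted p, and the median log2 difference of all genes tested was 0.006. The 3 libraries of one line lay apart from the 3 of the other for 7233 genes (61.4%), among them 1329 of the 1353 called. Genes higher in IL6Myc-3 differed by larger factors, with 325 of them at 4-fold or more and 137 at 16-fold or more, against 241 and 42 of the genes lower in IL6Myc-3. Of the lower genes 61 reached 100 CPM in IL6Myc-4, and of the higher genes 18 reached it in IL6Myc-3. In such bulk libraries fewer cells that express a gene and less RNA per cell cannot be told apart. Fitted differences of genes near 0 in 1 line rest on few counts, and limma on log2(CPM + 5), a scale that shrinks the differences of low genes, called 128 higher and 217 lower.

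**Figure D1:**
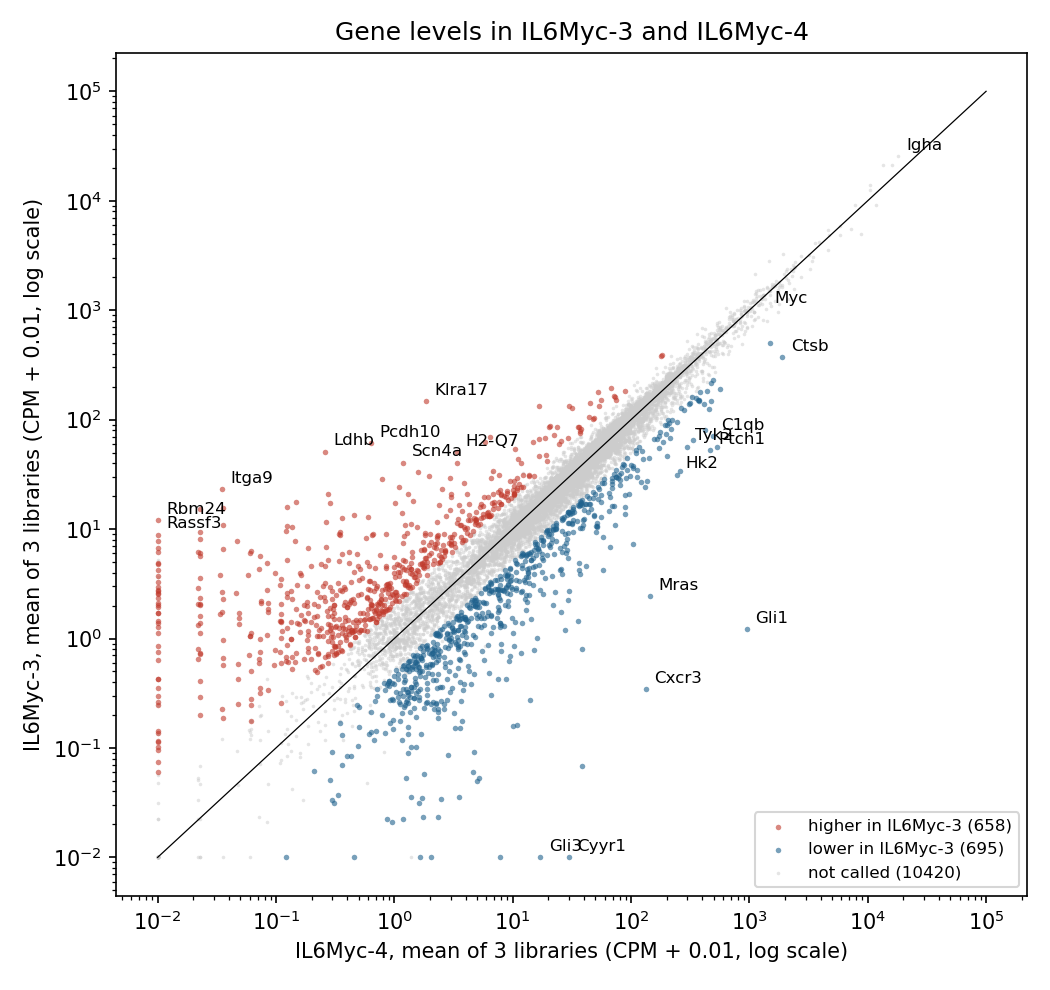
Mean level of each tested gene in IL6Myc-3 (vertical axis) and IL6Myc-4 (horizontal axis), in CPM with 0.01 added on log axes, 3 technical replicates per line; red points are the 658 genes called higher in IL6Myc-3, blue points the 695 called lower and grey points those not called. Gli1 lies far below the diagonal at 1.21 CPM in IL6Myc-3, against 958 CPM in IL6Myc-4, and the column of red points at the left edge holds genes with 0 counts in IL6Myc-4.

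Among Hedgehog pathway genes, the transcription factors Gli1 and Gli3 and the receptor gene Ptch1 were lower in IL6Myc-3. Gli1, the transcription factor that carries the pathway's output, was measured at 1.18, 1.11 and 1.33 CPM in the 3 IL6Myc-3 libraries, against 987, 895 and 993 CPM in those of IL6Myc-4. The groups lay far apart, with a 785-fold lower level in IL6Myc-3 (log2 difference -9.62 ± 0.11 SE, edgeR adjusted p = 2.57e-19). Gli3, a GLI factor that acts mostly as a repressor, had 0 counts in each IL6Myc-3 library, against 17.7, 16.9 and 16.8 CPM in IL6Myc-4. Taking 3 counts over the line as the floor, this was at least 470.0-fold lower in IL6Myc-3, although a listed 0 is not proof that the transcript was absent. Ptch1, which encodes the receptor Patched and is itself a pathway target, was at 53.1, 51.7 and 54.3 CPM in IL6Myc-3, against 468, 470.3 and 449 CPM in IL6Myc-4. It was 8.72-fold lower in IL6Myc-3 (log2 difference -3.12 ± 0.051 SE, edgeR adjusted p = 3.24e-18), and all IL6Myc-3 libraries lay below those of IL6Myc-4.

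The rest of the pathway did not follow a single direction. Of 25 listed genes 13 were tested, 1 was called higher and 4 lower in IL6Myc-3, 38.5% of those tested beside 11.5% of all genes. Their median log2 difference was -0.41 beside 0.006 for all genes. Evc, a ciliary protein that promotes Smoothened signalling, was the fourth gene called lower, at 0.138 CPM in IL6Myc-3, against 0.969 CPM in IL6Myc-4, and its call was lost with limma at either pseudocount. Disp1, which releases Hedgehog ligands from the cells that make them, was the gene called higher, at 11.1 ± 1.69 CPM in IL6Myc-3, against 4.76 ± 0.0416 CPM in IL6Myc-4. Sufu, an inhibitor that holds GLI factors in the cytoplasm, was not called at 20.8 CPM in IL6Myc-3 and 27.6 CPM in IL6Myc-4. Smo, which encodes Smoothened, had 2 counts in IL6Myc-3 and 4 in IL6Myc-4, over 3 libraries each. Without the reads, this low figure for Smo cannot be read as absence. The ligand genes Shh and Dhh had 0 counts in both lines, and Ihh had 19 counts in IL6Myc-3 and 11 in IL6Myc-4. For Gli1, the 3 other lines were at 0.0806, 0.921 and 0.573 CPM in IL6Myc-1, IL6Myc-2 and IL6Myc-5, near IL6Myc-3 and far from IL6Myc-4. For Ptch1 they were at 53.3, 41.7 and 46.9 CPM in IL6Myc-1, IL6Myc-2 and IL6Myc-5, so that again IL6Myc-4 stood apart.

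The GLI binding motif GACCACCCA, searched on both strands, was found in the promoter windows (250 bases before to 50 after the start, RefSeq, GRCm38.p6) of 78 of 27025 genes (0.289%). Among called genes with a window it was found in 3 of 502 higher in IL6Myc-3 and in 1 of 518 lower, Uaca. It was not in the windows of Ptch1, Gli3 or Cxcr3. Gli1 had no window among the promoters used and could not be searched. An exact motif in such short windows cannot show whether these genes hold GLI sites elsewhere.

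**Figure D2:**
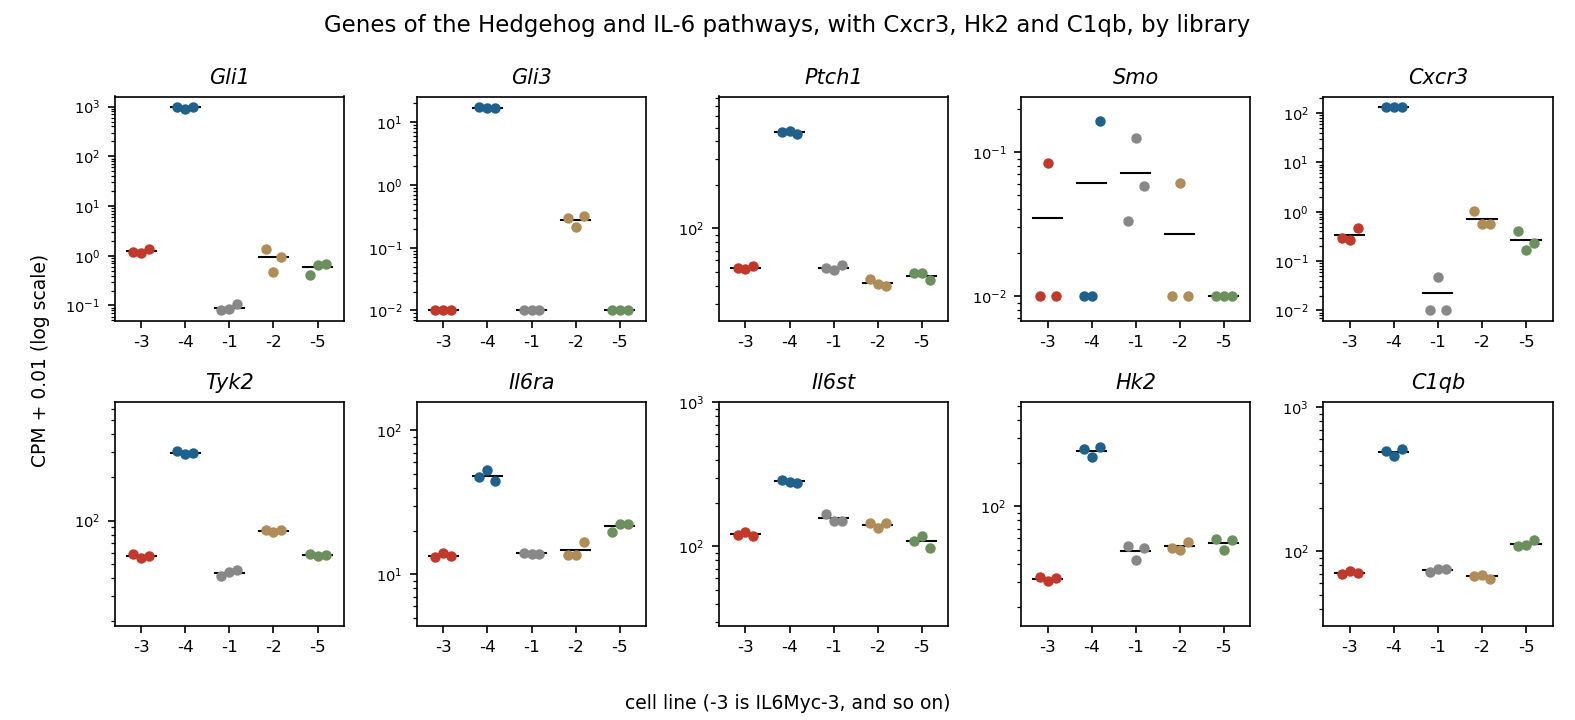
Levels in each library, in CPM with 0.01 added on log axes, of Hedgehog and IL-6 pathway genes with Cxcr3, Hk2 and C1qb; points are technical replicates, lines are means, and IL6Myc-3 and IL6Myc-4 come first in each panel. IL6Myc-4 lies above the 4 other lines for every gene shown apart from Smo, which lies near 0 in all lines.

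Cxcr3, the receptor for a set of interferon-induced chemokines, had the largest difference among the homing receptors tested. It was at 0.285, 0.26 and 0.455 CPM in IL6Myc-3, against 133, 134 and 135 CPM in IL6Myc-4, with all IL6Myc-3 libraries close to 0. The level was 389-fold lower in IL6Myc-3 (log2 difference -8.60 ± 0.15 SE, edgeR adjusted p = 7.18e-18). T cells also carry this receptor, and the list of T and NK cell markers described below summed to 33.9 to 37.4 CPM in IL6Myc-3 and 124 to 128 CPM in IL6Myc-4. Of these sums Cd2 made up 25.1 CPM in IL6Myc-3 and 81.4 CPM in IL6Myc-4. Cd3e, also in the list, had 3 counts in IL6Myc-3 and 1 in IL6Myc-4. A part of T cells in this result was not tested. Of 8 tested chemokine and homing receptors, 1 was called higher and 3 lower in IL6Myc-3 (50% beside 11.5% of all genes), with a median log2 difference of 0.07. Selplg, which encodes the selectin ligand PSGL-1, was at 147 ± 3.61 CPM in IL6Myc-3, against 376 ± 11.4 CPM in IL6Myc-4, and Ccr10, a chemokine receptor of IgA plasma cells, at 2.62 CPM in IL6Myc-3, against 6.34 CPM in IL6Myc-4. The opposite direction was seen for Ccr2, a receptor of monocyte chemoattractants, at 2.02 ± 0.237 CPM in IL6Myc-3, against 0.163 ± 0.0256 CPM in IL6Myc-4. Cxcr4, the marrow homing receptor, was not called, at 129 CPM in IL6Myc-3 and 97.6 CPM in IL6Myc-4.

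Integrin subunits were divided between the lines: of 18 tested, 3 were called higher and 4 lower in IL6Myc-3, which is 38.9% of the list beside 11.5% of all genes. Itga9, which pairs with the beta 1 chain, was at 22.9, 28.6 and 18.1 CPM in IL6Myc-3, and over the 3 IL6Myc-4 libraries it had 2 counts. The ratio of its counts per library size was 917 (95% interval 254 to 7581). Itga2, a collagen receptor subunit, was also higher, at 8.93 CPM in IL6Myc-3, against 3.18 CPM in IL6Myc-4, as was Itga3 at 1.4 CPM in IL6Myc-3, against 0.188 CPM in IL6Myc-4. Lower in IL6Myc-3 were Itga5, the fibronectin receptor subunit, at 20.3 ± 1.84 CPM in IL6Myc-3, against 56.1 ± 4.3 CPM in IL6Myc-4, and Itga6, a laminin receptor subunit, at 1.73 ± 0.432 CPM in IL6Myc-3, against 7.45 ± 0.539 CPM in IL6Myc-4. Itgb7, a subunit of gut homing receptors, was lower at 5.18 CPM in IL6Myc-3, against 14.1 CPM in IL6Myc-4, and Itgae at 0.442 CPM in IL6Myc-3, against 0.976 CPM in IL6Myc-4. The call of Itgae was lost with limma at either pseudocount and without IL6Myc-3 replicate 2. The beta 1 chain gene Itgb1 was not called, at 123 CPM in IL6Myc-3 and 162 CPM in IL6Myc-4.

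Il6ra, Il6st and Tyk2 were lower in IL6Myc-3, while the ligand gene Il6 was not detected in either line. Il6 had 0 counts in every library, which allows up to 0.0365 CPM in IL6Myc-3 and 0.0376 CPM in IL6Myc-4 (3 counts over a line, counting error only). This bound holds for the mouse Il6 entry. Whether transcripts of an IL6 transgene would count toward that entry could not be told from these counts. Il6ra, the receptor's alpha chain, was at 13.1, 14 and 13.3 CPM in IL6Myc-3, against 47.2, 52.9 and 44.6 CPM in IL6Myc-4. Every IL6Myc-3 library lay below every IL6Myc-4 library, and the level was 3.58-fold lower in IL6Myc-3 (log2 difference -1.84 ± 0.085 SE, edgeR adjusted p = 4.14e-12). Il6st, the signalling chain gp130, was at 121 ± 3.15 CPM in IL6Myc-3, against 282 ± 7.19 CPM in IL6Myc-4, 2.32-fold lower in IL6Myc-3. Tyk2, a Janus kinase, was at 58.2, 55.1 and 56.6 CPM in IL6Myc-3, against 303, 289 and 294 CPM in IL6Myc-4, 5.22-fold lower (log2 difference -2.38 ± 0.043 SE, edgeR adjusted p = 9.02e-18).

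These 3 genes were the called members of the 20 tested in the IL6 JAK STAT3 list, with 0 called higher. This is 15% of the list beside 11.5% of all genes, and the median log2 difference was -0.42. Stat3 itself was at 139 ± 6.24 CPM in IL6Myc-3, against 116 ± 6.17 CPM in IL6Myc-4 and was not called. Among feedback inhibitors and targets, Socs3 was at 8.22 CPM in IL6Myc-3 and 8.34 CPM in IL6Myc-4, and Pim1, a survival kinase, at 199 CPM in IL6Myc-3 and 366 CPM in IL6Myc-4. Neither was called, and Socs3 overlapped between the lines. Jak2 was at 107 CPM in IL6Myc-3 and 76.3 CPM in IL6Myc-4 and was not called. Jak1 had 20 counts in IL6Myc-3 and 41 in IL6Myc-4, a low figure for a widely expressed kinase gene that cannot be read as absence without the reads. Myc, a gene named in the genotype, was at 1029 ± 42.9 CPM in IL6Myc-3, against 1371 ± 14.6 CPM in IL6Myc-4, which passed the adjusted p but not the size threshold (log2 difference -0.41). Transcripts of a transgene and of the endogenous gene could not be told apart in these counts.

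Among class I presentation genes, 2 members of the H2-Q family and the regulator Nlrc5 were higher in IL6Myc-3. The promoters of H2-Q7 and H2-Q6 are shown because these genes had the largest class I differences and lie close together. Each is the 250 bases before the gene's start, 5′ to 3′, from RefSeq on GRCm38.p6, at chr17:35438905-35439154 (plus strand) for H2-Q7 and chr17:35424600-35424849 (plus strand) for H2-Q6. Capitals mark the kappa B motif GGGATTCCC.
H2-Q7: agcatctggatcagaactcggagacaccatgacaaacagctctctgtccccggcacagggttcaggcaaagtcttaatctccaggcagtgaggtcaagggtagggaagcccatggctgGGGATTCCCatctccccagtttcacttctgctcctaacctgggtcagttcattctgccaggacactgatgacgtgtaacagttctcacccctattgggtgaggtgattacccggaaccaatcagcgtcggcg
H2-Q6: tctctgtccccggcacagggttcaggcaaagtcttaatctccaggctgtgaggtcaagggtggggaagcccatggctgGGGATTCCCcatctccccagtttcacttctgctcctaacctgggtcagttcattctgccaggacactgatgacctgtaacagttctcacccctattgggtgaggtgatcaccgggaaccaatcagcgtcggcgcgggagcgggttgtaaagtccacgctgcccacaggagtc
The motif began 132 bases before the start of H2-Q7 and 172 bases before that of H2-Q6. Over the 211 aligned positions the 2 promoters were identical at 205, with 5 mismatches and 1 gap. The same motif on either strand was in the windows of H2-K1 and H2-D1, in 112 of 27025 genes (0.414%), in 4 of 502 genes called higher and in 3 of 518 called lower. The 4 higher genes include H2-Q7 and H2-Q6 themselves, which were picked for their differences. H2-K1 and H2-D1 were not called.

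H2-Q7, a non-classical class I gene, was at 49.9, 48.6 and 52.8 CPM in IL6Myc-3, against 3.32, 3.79 and 3 CPM in IL6Myc-4. The groups lay well apart, 15-fold higher in IL6Myc-3 (log2 difference 3.90 ± 0.11 SE, edgeR adjusted p = 5.79e-15). H2-Q6 was at 68.3, 65.1 and 70.6 CPM in IL6Myc-3, against 18.7, 18 and 19.97 CPM in IL6Myc-4, 3.6-fold higher (log2 difference 1.85 ± 0.060 SE, edgeR adjusted p = 3.37e-14). These genes are near-identical copies, so the way the authors' counting split reads between them is uncertain. Nlrc5, a transactivator of class I genes, was at 28.5, 26.5 and 26.9 CPM in IL6Myc-3, against 8.83, 10.3 and 9.1 CPM in IL6Myc-4, 2.9-fold higher in IL6Myc-3. In IL6Myc-3 all libraries lay above those of IL6Myc-4 for each of the 3 genes.

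The classical class I genes differed by less. H2-K1 was at 325 ± 8.35 CPM in IL6Myc-3, against 212 ± 5.49 CPM in IL6Myc-4, and H2-D1 at 960.4 ± 28.2 CPM in IL6Myc-3, against 687 ± 15.3 CPM in IL6Myc-4. Both passed the adjusted p, at log2 differences of 0.61 and 0.48, but not the size threshold. H2-T23, which encodes the ligand Qa-1, went the other way at 271 CPM in IL6Myc-3 and 516 CPM in IL6Myc-4, log2 difference -0.93, and was not called either. Of the 26 members tested for class I presentation, 3 were higher and 0 lower, a share of 11.5% that equals the share of all genes called. For H2-Q7, the 3 other lines were at 57.7, 82.1 and 85.2 CPM in IL6Myc-1, IL6Myc-2 and IL6Myc-5, so that IL6Myc-4 was the low line.

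Class II presentation was represented mainly by accessory genes. Cd74, the class II invariant chain, was at 66.1 ± 2.18 CPM in IL6Myc-3, against 167 ± 4.82 CPM in IL6Myc-4, 2.52-fold lower in IL6Myc-3 (log2 difference -1.33 ± 0.039 SE, edgeR adjusted p = 6.99e-15). Of 10 tested members 2 were called lower and 0 higher, 20% beside 11.5% of all genes. The other was H2-Eb1, with 13 counts in IL6Myc-3 and 27 in IL6Myc-4, whose call was lost without IL6Myc-3 replicate 2 or 3, without IL6Myc-4 replicate 1 or 2, without the filter on low genes, with DESeq2, with limma and with the replicate block. H2-Ab1 had 0 counts in both lines.

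**Figure D3:**
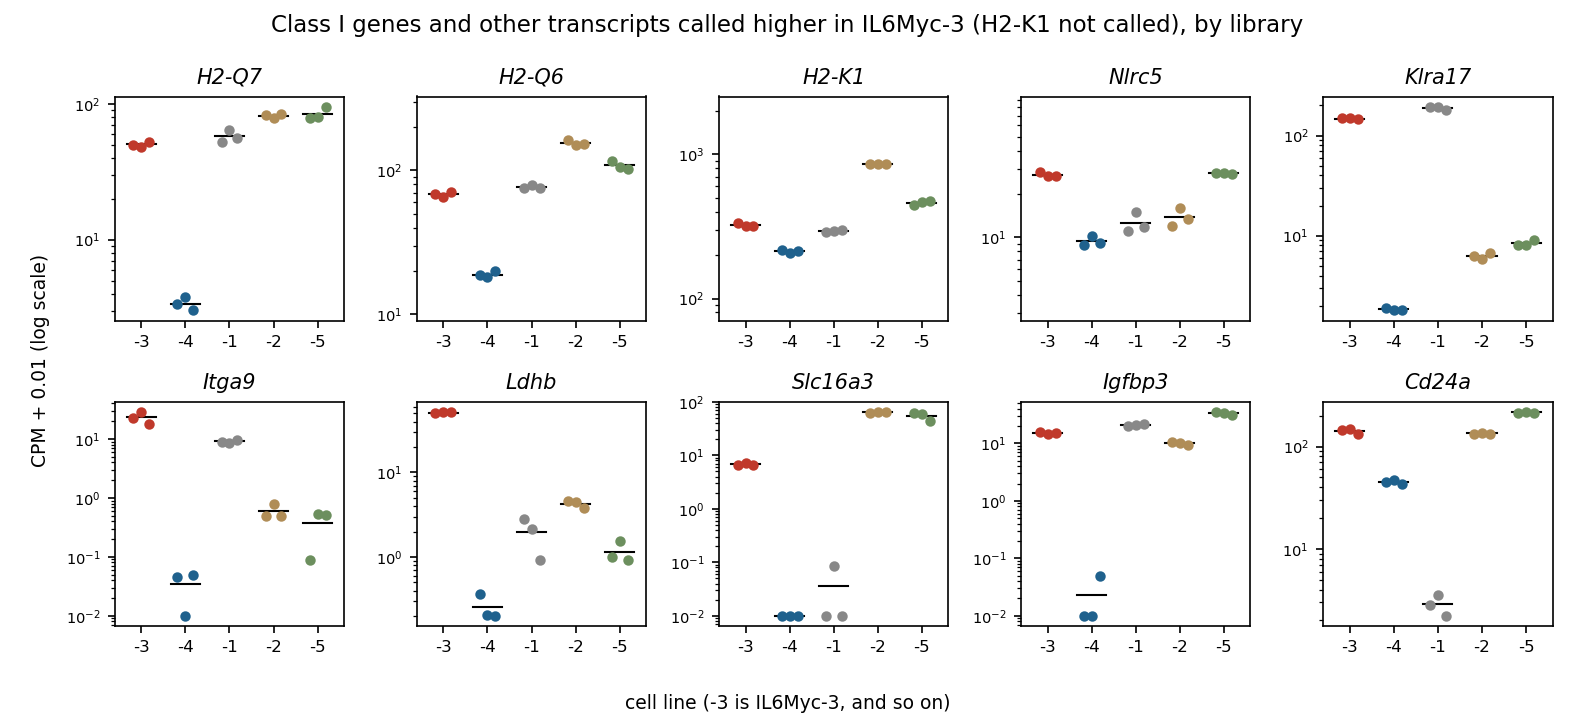
Levels in each library, in CPM with 0.01 added on log axes, of class I genes and of other transcripts called higher in IL6Myc-3 (H2-K1, shown beside them, was not called); points are technical replicates, lines are means, and IL6Myc-3 and IL6Myc-4 come first. H2-Q7 lies at 50.4 CPM in IL6Myc-3 and 3.37 CPM in IL6Myc-4, below all other lines, whereas Ldhb in IL6Myc-3 lies above all other lines.

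Interferon response genes were called in both directions, 2 higher and 5 lower of 29 tested (24.1% beside 11.5% of all genes), with a median log2 difference of -0.41. Ifitm3 and Ifitm2, membrane proteins that restrict virus entry, were higher in IL6Myc-3, at 16.1 CPM and 31 CPM, against 5.62 CPM and 12.1 CPM in IL6Myc-4. Irgm1, an interferon-inducible GTPase, was lower at 34.6 ± 1.64 CPM in IL6Myc-3, against 74 ± 1.42 CPM in IL6Myc-4. Mx1, an antiviral GTPase, was lower at 1.17 CPM in IL6Myc-3, against 3.13 CPM in IL6Myc-4, and Ifi44 at 0.461 CPM in IL6Myc-3, against 2.06 CPM in IL6Myc-4. The lower genes other than Irgm1 and Ifi47 were at 3.13 CPM or less in both lines. The calls of Mx1 and Ifi47 were lost with limma at either pseudocount, and that of Ifi47 also without IL6Myc-3 replicate 1 or 2 and without IL6Myc-4 replicate 1.

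Of 25 tested NF-kB genes 2 were called higher in IL6Myc-3 and 0 lower, 8% of the list beside 11.5% of all genes, with a median log2 difference of 0.08. Tnf, the cytokine gene, was at 1.18, 1.37 and 1.59 CPM in IL6Myc-3, against 0.0357, 0.194 and 0.192 CPM in IL6Myc-4. All IL6Myc-3 libraries were above those of IL6Myc-4, yet the level was low in both. Tnfaip3, the feedback inhibitor A20, was at 4.84 ± 0.928 CPM in IL6Myc-3, against 1.7 ± 0.683 CPM in IL6Myc-4. Nfkbia, the inhibitor IkB alpha, was at 41.6 CPM in IL6Myc-3 and 22.4 CPM in IL6Myc-4 and did not reach the size threshold. Map3k14, the kinase NIK of the alternative pathway, was at 2.75 CPM in IL6Myc-3 and 2.95 CPM in IL6Myc-4, with overlapping libraries.

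Among early response and MAPK feedback genes, Egr1, an immediate early transcription factor, was at 2.65, 2.26 and 2.05 CPM in IL6Myc-3 and had 1 count over the 3 IL6Myc-4 libraries. The ratio of its counts per library size was 183 (95% interval 32.5 to 7285). Ier3 was also called higher, at 7.48 CPM in IL6Myc-3, against 3.21 CPM in IL6Myc-4. Spry1, an inhibitor of receptor tyrosine kinase signalling, was called lower at 1.38 CPM in IL6Myc-3, against 2.83 CPM in IL6Myc-4, and that call was lost with limma, without IL6Myc-3 replicate 1 and without IL6Myc-4 replicate 1 or 3. The feedback phosphatase Dusp6 was not called, at 17.8 CPM in IL6Myc-3 and 25.9 CPM in IL6Myc-4. In all, 2 of 24 tested members were higher and 1 lower, 12.5% of the list beside 11.5% of all genes. Mapk8, the stress kinase JNK1, was 2.7-fold higher, at 149.7 ± 7.28 CPM in IL6Myc-3, against 55.5 ± 1.54 CPM in IL6Myc-4, and Pik3cg, the catalytic subunit of PI3K gamma, 2.89-fold higher, at 195 ± 5.77 CPM in IL6Myc-3, against 67.4 ± 3.47 CPM in IL6Myc-4. Mras, a RAS family GTPase, was at 2.98, 2.41 and 1.85 CPM in IL6Myc-3, against 141, 141 and 151 CPM in IL6Myc-4, 60.6-fold lower.

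Of 17 tested plasma cell identity genes 2 were called lower in IL6Myc-3 and 0 higher, a share of 11.8% that is close to the 11.5% of all genes. Their median log2 difference was -0.18. Tnfrsf17, which encodes BCMA, a receptor for survival factors and a therapy target, was at 9.3, 10.9 and 10.5 CPM in IL6Myc-3, against 37.8, 35.5 and 37.9 CPM in IL6Myc-4, 3.62-fold lower (log2 difference -1.86 ± 0.078 SE, edgeR adjusted p = 1.11e-12). Slamf7, a surface receptor targeted by antibodies in myeloma, was at 93.1 ± 5.33 CPM in IL6Myc-3, against 211 ± 6.17 CPM in IL6Myc-4, 2.26-fold lower. Jchain, which links IgA dimers, was at 4982 ± 52.2 CPM in IL6Myc-3, against 8728 ± 85.1 CPM in IL6Myc-4, and Sdc1, the plasma cell marker CD138, at 406 ± 10.6 CPM in IL6Myc-3, against 582 ± 15.2 CPM in IL6Myc-4. Both lay lower in all IL6Myc-3 libraries, with log2 differences of -0.81 and -0.52 that did not reach the size threshold. Cd38 was at 80.8 CPM in IL6Myc-3 and 94.3 CPM in IL6Myc-4 and was not called.

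Therapy targets and checkpoint genes included 5 of 19 called lower and 0 higher (26.3% beside 11.5% of all genes), with a median log2 difference of -0.39. Beside Tnfrsf17 and Slamf7, these were Ikzf3, a target of immunomodulatory drugs in human myeloma, at 2.51 ± 0.374 CPM in IL6Myc-3, against 13 ± 0.96 CPM in IL6Myc-4, Cd80, a costimulatory ligand, at 2.8 CPM in IL6Myc-3, against 9.83 CPM in IL6Myc-4, and Icosl at 0.655 CPM in IL6Myc-3, against 1.69 CPM in IL6Myc-4. The call of Icosl was lost with limma at either pseudocount.

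Mature B cell genes included 3 of 8 called lower and 1 higher, 50% beside 11.5% of all genes. Cd79b, a signalling chain of the antigen receptor, was at 189, 189.5 and 195 CPM in IL6Myc-3, against 569, 542 and 582 CPM in IL6Myc-4, 2.95-fold lower (log2 difference -1.56 ± 0.048 SE, edgeR adjusted p = 1.59e-14). Its partner Cd79a was low in both lines, at 0.491 CPM in IL6Myc-3, against 1.31 CPM in IL6Myc-4, and its call was lost with limma at either pseudocount. Ms4a1, which encodes CD20, was at 54.9 ± 1.34 CPM in IL6Myc-3, against 174 ± 5.97 CPM in IL6Myc-4, 3.16-fold lower. The gene called higher was Cd24a, which encodes a B cell surface glycoprotein, at 142 ± 7.82 CPM in IL6Myc-3, against 45.2 ± 1.64 CPM in IL6Myc-4, 3.14-fold higher in IL6Myc-3. Ebf1, an early B lineage factor, was not called, at 18 CPM in IL6Myc-3 and 30.8 CPM in IL6Myc-4.

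**Figure D4:**
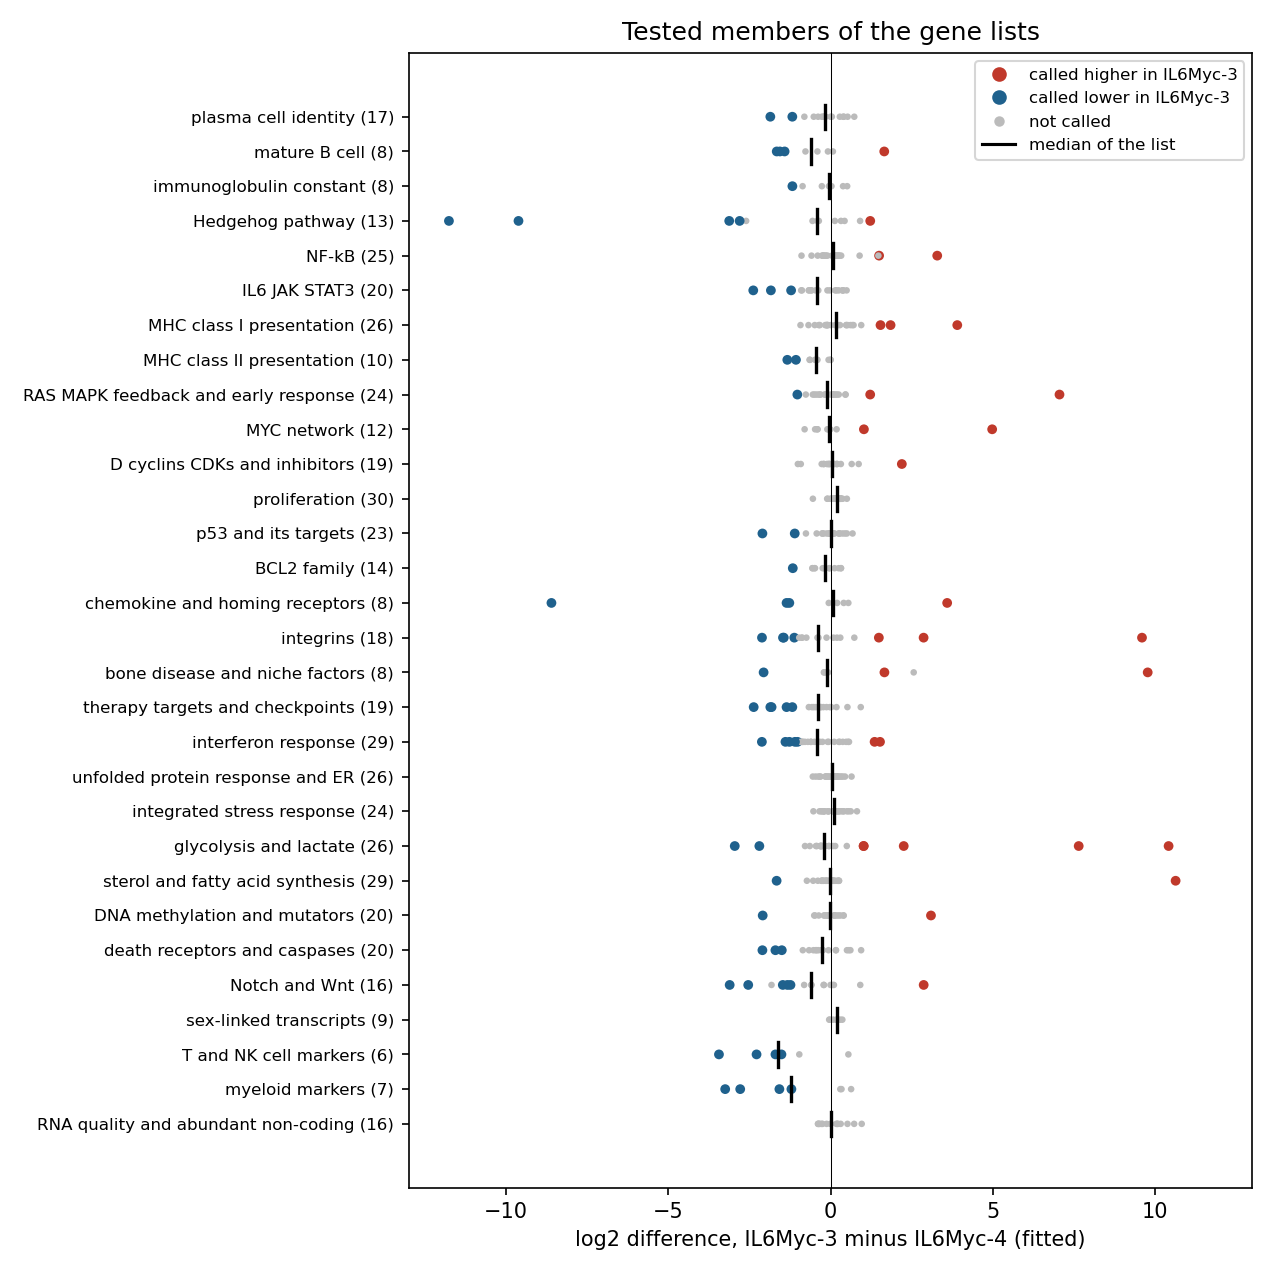
Log2 differences, IL6Myc-3 minus IL6Myc-4, of the tested members of each gene list with at least 5 of them (number tested in brackets); red and blue points are genes called higher and lower in IL6Myc-3, grey points are not called, and black bars are list medians. Gli1 and Gli3 are the leftmost points, while proliferation, unfolded protein response, integrated stress response, sex-linked and RNA quality genes hold 0 called members.

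Glycolysis and lactate genes were called in both directions, 5 higher and 2 lower of 26 tested (26.9% beside 11.5% of all genes), with a median log2 difference of -0.22. Hk2, hexokinase 2, which catalyses the first step of glycolysis, was at 32.1, 30.5 and 31.7 CPM in IL6Myc-3, against 251, 219.9 and 259 CPM in IL6Myc-4. It was 7.75-fold lower in IL6Myc-3 (log2 difference -2.95 ± 0.088 SE, edgeR adjusted p = 7.79e-14), with no overlap. Aldoc, an aldolase, was lower at 26.7 ± 0.777 CPM in IL6Myc-3, against 122 ± 6.03 CPM in IL6Myc-4. The opposite held for Ldhb, a lactate dehydrogenase subunit, at 49.9, 52 and 51.3 CPM in IL6Myc-3 and 0.357, 0.194 and 0.192 CPM in IL6Myc-4, 200.1-fold higher in IL6Myc-3 (log2 difference 7.64 ± 0.28 SE, edgeR adjusted p = 1.56e-12). Slc16a3, the lactate exporter MCT4, was at 6.61, 7.01 and 6.6 CPM in IL6Myc-3 and had 0 counts in IL6Myc-4, at least 179-fold higher. Pfkm, a phosphofructokinase, was higher at 16.7 ± 0.844 CPM in IL6Myc-3, against 3.5 ± 0.37 CPM in IL6Myc-4, and so were Pfkfb3 at 20.7 CPM in IL6Myc-3, against 10.2 CPM in IL6Myc-4 and the glucose transporter Slc2a3 at 6.22 CPM in IL6Myc-3, against 3.08 CPM in IL6Myc-4. The calls of Pfkfb3 and Slc2a3 were lost with limma at either pseudocount, and that of Slc2a3 also without IL6Myc-3 replicate 2 and without IL6Myc-4 replicate 1 or 3. Ldha was at 817 CPM in IL6Myc-3 and 841 CPM in IL6Myc-4 and was not called, and Slc2a1 was at 51.5 CPM in IL6Myc-3 and 80.4 CPM in IL6Myc-4, short of the size threshold.

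In the sterol and fatty acid synthesis list, the median log2 difference was -0.02 over 29 tested genes. Fdft1, the squalene synthase gene, was called lower, 3.17-fold, at 17.7 ± 0.38 CPM in IL6Myc-3, against 56 ± 1.6 CPM in IL6Myc-4.

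Tested genes of proliferation, the unfolded protein response and the integrated stress response each differed by less than 2-fold. Of 30 proliferation genes 0 were called, beside 11.5% of all genes, with a median log2 difference of 0.198. Mki67, a marker of cycling cells, was at 660.4 ± 18.6 CPM in IL6Myc-3 and 531 ± 17.5 CPM in IL6Myc-4, past the adjusted p but not the size threshold (log2 difference 0.31). The unfolded protein response and integrated stress response lists likewise had 0 called members of 26 and 24 tested, beside 11.5% of all genes. Hsp90b1, an endoplasmic reticulum chaperone, was at 21031 ± 54.4 CPM in IL6Myc-3, against 13445 ± 89.2 CPM in IL6Myc-4, log2 difference 0.65. Of the D cyclins, Ccnd2 was at 1299 CPM in IL6Myc-3 and 1141 CPM in IL6Myc-4 and Ccnd3 at 20.6 CPM in IL6Myc-3 and 38.9 CPM in IL6Myc-4, neither past the size threshold. Ccnd1 had 0 counts in IL6Myc-3 and 1 in IL6Myc-4. Cdkn1c, a CDK inhibitor, was the 1 called of 19 cyclin and CDK genes, higher at 0.306 CPM in IL6Myc-3, against 0.0633 CPM in IL6Myc-4, 5.26% of the list beside 11.5% of all genes. Its call was lost with limma at either pseudocount. In the MYC network 2 of 12 tested genes were called higher and 0 lower, 16.7% beside 11.5% of all genes. Mlxip, a MAX-like network partner, was at 76.1 ± 1.01 CPM in IL6Myc-3, against 37.4 ± 0.329 CPM in IL6Myc-4, and Mycl had 76 counts in IL6Myc-3 and 2 in IL6Myc-4. The call of Mycl was lost with limma at either pseudocount.

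Tnfrsf10b, the receptor for the death ligand TRAIL, was at 3.75, 3.19 and 2.7 CPM in IL6Myc-3, against 13, 15.1 and 13.1 CPM in IL6Myc-4, 4.29-fold lower (log2 difference -2.10 ± 0.11 SE, edgeR adjusted p = 4.22e-11). The groups did not overlap. Casp6 and Casp12, caspases, were lower too, at 2.34 CPM and 2.08 CPM in IL6Myc-3, against 7.64 CPM and 5.9 CPM in IL6Myc-4. Bmf, a pro-apoptotic BCL2 family gene, was the 1 called of 14 tested, lower at 38.5 ± 3.28 CPM in IL6Myc-3, against 86.6 ± 4.13 CPM in IL6Myc-4. Ddit4, an inhibitor of mTORC1 signalling, was at 89.2 ± 4.79 CPM in IL6Myc-3, against 192 ± 1.44 CPM in IL6Myc-4. Trp53 was at 97 CPM in IL6Myc-3 and 80.8 CPM in IL6Myc-4, and Cdkn2a at 35.7 CPM in IL6Myc-3 and 34.8 CPM in IL6Myc-4, where the libraries overlapped. Of 23 tested p53 genes 2 were called lower and 0 higher, and of 20 death receptor and caspase genes 3 and 0. These shares, 8.7% and 15%, lie near the 11.5% of all genes, as does the 7.14% of the BCL2 family.

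Notch and Wnt genes included 1 of 16 called higher and 5 lower (37.5% beside 11.5% of all genes), with a median log2 difference of -0.59. Notch1, the receptor, was at 30.7, 30.05 and 32.9 CPM in IL6Myc-3, against 81, 91.1 and 63.6 CPM in IL6Myc-4, 2.52-fold lower. The ligand genes Jag2 and Dll4 were lower at 0.626 CPM and 0.247 CPM in IL6Myc-3, against 3.59 CPM and 2.22 CPM in IL6Myc-4. Lrp5, a Wnt coreceptor, was at 8.94 CPM in IL6Myc-3, against 21.1 CPM in IL6Myc-4 and Fzd6, a Wnt receptor, at 3.43 CPM in IL6Myc-3, against 9.58 CPM in IL6Myc-4. Notch3 was the gene called higher, at 0.858 CPM in IL6Myc-3, against 0.113 CPM in IL6Myc-4, and its call was lost with limma at either pseudocount. Hes1, a Notch target, was not called, at 10.4 CPM in IL6Myc-3 and 15.7 CPM in IL6Myc-4.

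Among other listed genes, Igfbp3, which binds insulin-like growth factors, was at 15.9, 14.7 and 15.2 CPM in IL6Myc-3 and had 1 count over the 3 IL6Myc-4 libraries. The ratio of its counts per library size was 1216 (95% interval 218 to 48086). Dnmt3b, a de novo DNA methyltransferase, was higher at 4.96 ± 0.411 CPM in IL6Myc-3, against 0.579 ± 0.297 CPM in IL6Myc-4. Tet1, which oxidises methylcytosine, was called lower, but 1 IL6Myc-3 library stood at 1.06 CPM and the other 2 at 0.0371 and 0.0325 CPM. That call was lost with limma, without the filter on low genes, with the 6 libraries alone, without IL6Myc-3 replicate 2 or 3 and without IL6Myc-4 replicate 1 or 3. Spp1, which encodes osteopontin, was lower at 0.825 CPM in IL6Myc-3, against 3.47 CPM in IL6Myc-4, and the chemokine gene Ccl5 was higher at 1.46 CPM in IL6Myc-3, against 0.463 CPM in IL6Myc-4, a call lost with limma at either pseudocount. Of 20 tested DNA methylation and mutator genes 1 was called higher and 1 lower, and of 8 bone disease and niche factors 2 higher and 1 lower, 10% and 37.5% beside 11.5% of all genes. Of 8 immunoglobulin constant genes 1 (12.5%) was called lower, Ighg3, at 0.397 CPM in IL6Myc-3, against 0.885 CPM in IL6Myc-4, a call lost with limma and without IL6Myc-3 replicate 3. The sex-linked list and the list of RNA quality and abundant non-coding transcripts had 0 called of 9 and 16 tested, beside 11.5% of all genes.

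Outside the lists, the genes with the largest differences were mostly at or near 0 counts in 1 of the lines. Among genes called higher in IL6Myc-3, 42 had 0 counts in IL6Myc-4, and among those called lower 7 had 0 counts in IL6Myc-3. Rbm24, an RNA-binding protein gene, was at 12.2, 12 and 12 CPM in IL6Myc-3, at least 320.4-fold higher than in IL6Myc-4 with its 0 counts. Rassf3, at 8.9 ± 0.636 CPM in IL6Myc-3, and Rnf130, a ubiquitin ligase gene, at 6.13 ± 0.34 CPM, also had 0 counts in IL6Myc-4. They were at least 237-fold and 163-fold higher in IL6Myc-3. Lratd2, Scamp1, Cnksr3, Zcchc14, St6gal2, Rcn1, Eya1 and Tbx18 were at 5.61 CPM to 15.7 CPM in IL6Myc-3 and had 1 or 2 counts in IL6Myc-4. The developmental regulators Eya1 and Tbx18 were low in some of the other lines as well. Eya1 was at 0.016, 3.76 and 0.0531 CPM in IL6Myc-1, IL6Myc-2 and IL6Myc-5, and Tbx18 at 0.0281, 0.0204 and 4.33 CPM in IL6Myc-1, IL6Myc-2 and IL6Myc-5.

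In the opposite direction, Cyyr1 had 0 counts in IL6Myc-3, against 29.6, 31.2 and 29.1 CPM in IL6Myc-4, at least 821-fold lower in IL6Myc-3. Pcsk5, a proprotein convertase gene, had 0 counts in IL6Myc-3, against 7.77 ± 0.627 CPM in IL6Myc-4, at least 214-fold lower. Ano9, an anoctamin gene, was at 0.0585 ± 0.0339 CPM in IL6Myc-3, against 38.4 ± 3.01 CPM in IL6Myc-4, and Chrnb4, a nicotinic acetylcholine receptor subunit, at 0.793 ± 0.0395 CPM in IL6Myc-3, against 38.4 ± 1.18 CPM in IL6Myc-4. Fgr, a SRC family kinase, was 23.2-fold lower, at 1.18 ± 0.301 CPM in IL6Myc-3, against 27.9 ± 0.301 CPM in IL6Myc-4. Agt, Cacng6, Esyt3, Tmem266 and Jakmip1 were 24.5-fold to 97.4-fold lower by edgeR's fit. Abca4 had 3 counts in IL6Myc-3 and 400 in IL6Myc-4.

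Among abundant genes, Klra17, a lectin-like receptor of the Ly49 family, was at 148, 149.5 and 146 CPM in IL6Myc-3, against 1.89, 1.78 and 1.81 CPM in IL6Myc-4, 80.7-fold higher (log2 difference 6.33 ± 0.070 SE, edgeR adjusted p = 1.69e-20). Close relatives of this gene can share its reads. Serpini1, the protease inhibitor neuroserpin, was 8.01-fold higher at 132 ± 4.01 CPM in IL6Myc-3, against 16.5 ± 0.378 CPM in IL6Myc-4, and Slpi, a secreted protease inhibitor, 4.04-fold higher at 127 ± 5.36 CPM in IL6Myc-3, against 31.6 ± 1.04 CPM in IL6Myc-4. Tsc22d1, Gpd2, Cpeb3 and Htra4 were 2.27-fold to 3.41-fold higher. Foxf2, a forkhead transcription factor, was 14.3-fold lower, at 7.24 ± 0.34 CPM in IL6Myc-3, against 104 ± 1.11 CPM in IL6Myc-4. Chit1, a chitinase, was 9.52-fold lower at 56.4 ± 3.57 CPM in IL6Myc-3, against 537 ± 11.2 CPM in IL6Myc-4, while Papln and Acer3, a ceramidase gene, were 7.65-fold and 5.32-fold lower. At 1000 CPM or more in the higher line, 0 genes were called higher and 2 lower, Ctsb and Fth1, named here after their values were seen. Ctsb, the lysosomal protease cathepsin B, was at 366, 364 and 383 CPM in IL6Myc-3, against 1949, 1898 and 1856 CPM in IL6Myc-4, 5.12-fold lower (log2 difference -2.36 ± 0.036 SE, edgeR adjusted p = 1.83e-18). Fth1, the ferritin heavy chain, was at 503 ± 4.28 CPM in IL6Myc-3, against 1494 ± 49.2 CPM in IL6Myc-4.

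Several transcripts listed as markers of other blood cells were lower in IL6Myc-3. C1qb, a chain of complement C1q made by macrophages, was at 69.5, 73.3 and 70.6 CPM in IL6Myc-3, against 495, 462 and 513 CPM in IL6Myc-4, 6.89-fold lower (log2 difference -2.79 ± 0.050 SE, edgeR adjusted p = 9.02e-18). C1qc was at 6.92 ± 0.542 CPM in IL6Myc-3, against 65.8 ± 1.38 CPM in IL6Myc-4, and the lysosomal marker Cd68 at 62.3 ± 2.3 CPM in IL6Myc-3, against 186 ± 3.87 CPM in IL6Myc-4. Of 20 myeloid markers 7 were tested, 4 were called lower and 0 higher (57.1% of those tested beside 11.5% of all genes), and the summed level of the list was 149 to 158 CPM in IL6Myc-3 and 729 to 790.0 CPM in IL6Myc-4. The defining macrophage and granulocyte markers were at or near 0: Adgre1, Marco, S100a8 and S100a9 had 0 counts in both lines, Lyz2 had 2 counts in IL6Myc-3 and 0 in IL6Myc-4, and C1qa, the partner chain, had 1 and 0. Csf1r, the macrophage growth factor receptor, had 45 counts in IL6Myc-3 and 1 in IL6Myc-4.

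Several T and NK cell markers were lower too. Cd3g was at 1.71, 2.63 and 1.72 CPM in IL6Myc-3, against 22.4, 21.5 and 22 CPM in IL6Myc-4, 10.9-fold lower (log2 difference -3.44 ± 0.14 SE, edgeR adjusted p = 9.75e-13). Prf1, the perforin gene, was at 3.04 ± 0.621 CPM in IL6Myc-3, against 14.8 ± 1.41 CPM in IL6Myc-4, and Cd2 at 25.1 ± 0.585 CPM in IL6Myc-3, against 81.4 ± 0.727 CPM in IL6Myc-4. Of 18 markers 6 were tested, 4 were called lower and 0 higher (66.7% of those tested beside 11.5% of all genes), and the list's summed level was 33.9 to 37.4 CPM in IL6Myc-3 and 124 to 128 CPM in IL6Myc-4. Cd3e, needed for the T cell receptor complex, had 3 counts in IL6Myc-3 and 1 in IL6Myc-4, Gzmb and Ncr1 had 0 in both, and Cd8a had 0 in IL6Myc-3 and 2 in IL6Myc-4. The erythroid and megakaryocyte list summed to 2.67 to 4.19 CPM in IL6Myc-3 and 8.36 to 8.41 CPM in IL6Myc-4. Of its 3 tested members 2 were called lower (66.7% beside 11.5% of all genes), both at low levels. Gp9 was at 0.314 CPM in IL6Myc-3, against 2.94 CPM in IL6Myc-4, and Slc4a1 at 0.203 CPM in IL6Myc-3, against 0.626 CPM in IL6Myc-4. The stromal and endothelial list, with 0 of 2 tested called beside 11.5% of all genes, summed to 17.7 to 19 CPM in IL6Myc-3 and 27 to 29 CPM in IL6Myc-4. Whether other cells had a part in the differences described was not tested.

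By chromosome, the genes of chromosome 14 as a whole were lower in IL6Myc-3. Their median log2 difference was -0.47 over 375 genes tested, with quartiles of -0.68 and -0.27, and 86.7% of them lay below 0. The medians of the 3 IL6Myc-3 libraries taken singly were -0.41, -0.43 and -0.43. On chromosome 7 the median was 0.19, and on each other autosome and the X chromosome it lay between -0.085 and 0.089. On chromosome 14, 19 genes were called higher and 40 lower, 15.7% of those tested beside 11.5% of all genes. On the other chromosomes this share was 7.66% (chromosome 18) to 14.3% (chromosome 3). Ctsb, Fdft1 and Tnfrsf10b, described above, lie on this chromosome, as do Mapk8 and Tsc22d1, which were higher. Against IL6Myc-1, IL6Myc-2 and IL6Myc-5, the chromosome 14 median was 0.062, -0.25 and -0.33 for IL6Myc-3, and 0.54, 0.24 and 0.12 for IL6Myc-4.

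**Figure D5:**
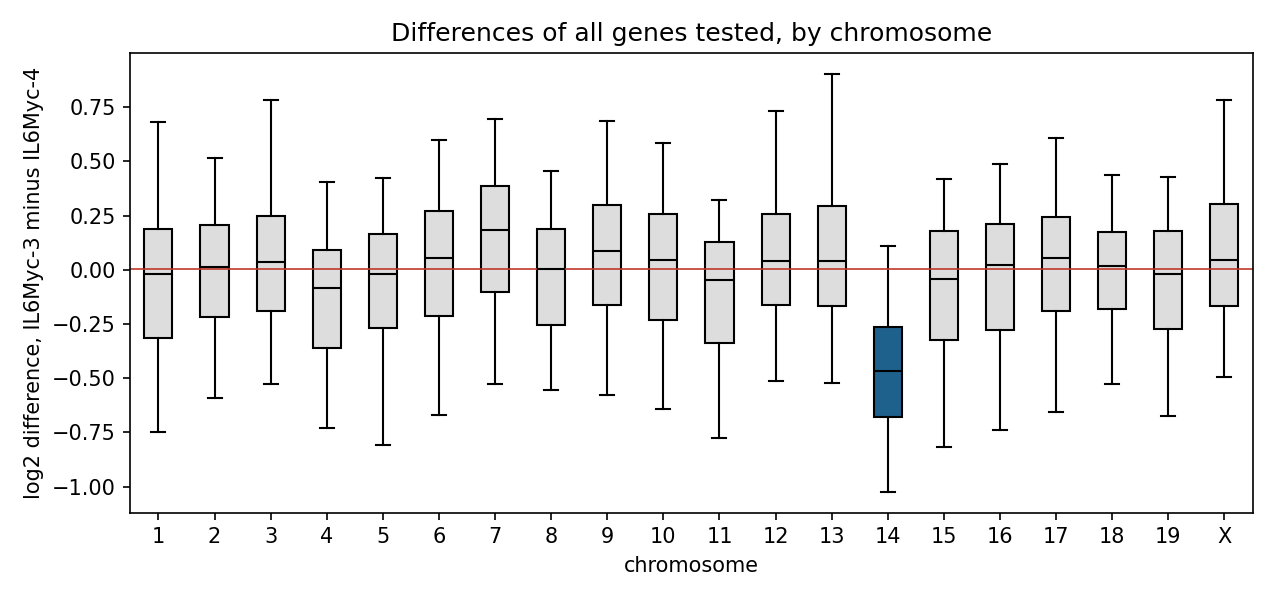
Log2 differences, IL6Myc-3 minus IL6Myc-4, of all tested genes by chromosome; boxes span the quartiles with the median as a line, whiskers reach the tenth and ninetieth percentiles, and the red line is the median of all genes. Chromosome 14, in blue, has its median at -0.47 and its upper quartile at -0.27, below the medians of all other chromosomes shown.

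The 3 other lines place these differences. Of the 658 genes higher in IL6Myc-3, all 3 other lines were nearer to IL6Myc-3 for 131 and nearer to IL6Myc-4 for 75, and of the 695 lower genes for 215 and 69, on the scale of mean log2 levels. For most called genes the other lines were split. Just 1 of the 3 was nearer to IL6Myc-4 for 242 higher and 220 lower genes, and 2 of the 3 for 210 and 191. Over the 15 libraries, the genes whose levels were most like those of Gli1 were Mmrn1, Cxcr3, Agt, Gli3 and Abca4, with Pearson's r of 0.994 to 0.998. Each was high in IL6Myc-4 only, with Mmrn1, a multimerin gene, at 0.419 CPM in IL6Myc-3, against 8.74 CPM in IL6Myc-4. Those most like H2-Q7 were Dnajc6, Aldh7a1, Pou2af1, Trpc6 and Cnksr3, with r of 0.959 to 0.971. Aldh7a1, an aldehyde dehydrogenase gene, was at 62.2 ± 2.26 CPM in IL6Myc-3, against 5.78 ± 0.359 CPM in IL6Myc-4. The 15 libraries come from 5 lines, so these likenesses rest on at most 5 independent points and carry no test.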

How the data were processed

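Per the submitters' processing notes, Trim Galore 0.4.0 and DESeq2 were used with the build GRCm39. Which aligner, quantifier and annotation were used is not given in the sources. The authors deposited 1 table of 32434 entries that its name calls TPM. Its 15 library columns sum to different totals (19068543 to 41165599), so the authors' deposited values were read as estimated counts with no common library total, and were rounded to whole numbers. A further column equals the mean of the libraries within 6e-05 and was not used. Names matched a symbol for 99.2% of entries.

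The 11773 genes that reached 1 CPM in 3 or more libraries were fitted with edgeR 4.0.16 (R 4.3.3), quasi-likelihood with robust dispersion and TMM, on all 15 libraries with the line as the only factor. P-values were adjusted over all genes by Benjamini-Hochberg. Levels are TMM-scaled CPM. A line with 0 counts was set to a floor of 3 counts, and ratios with 1 to 3 counts carry exact 95% intervals, both for counting error only. Libraries of the same line differed by more than counting error. Over entries with 10 or more counts, their chi-square per degree of freedom was 6.14 to 8.80. These intervals can therefore be too narrow. Alternatives used DESeq2 1.42.0 and limma 3.58.1. The procedure was tested on simulated data.

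The comparison and the 32 gene lists (701 genes) were chosen with earlier results of these data known. Genes named were the 15 most changed each way at 5 CPM or more, the 10 most changed each way at 100 CPM or more, up to 4 called members per list, and a set of plasma cell, IL-6, class I and marker genes. The further list members named were chosen as examples after their values were seen. The choice of likeness genes for Gli1 and H2-Q7 took the 5 highest correlations. Replicate numbers did not pair libraries across lines, as deviations of same-numbered libraries correlated at 0.0039, 0.046 and -0.0091. Some listed genes are not reported here.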

Additional observations from a re-analysis of the deposited data

How the results depend on the processing

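The total of 1353 called genes (658 higher and 695 lower in IL6Myc-3) stayed within 1.5 times with DESeq2 size factors, TMM without immunoglobulin genes, no filter, DESeq2 and the 6 libraries alone. A filter of 5 CPM gave 764 (336 higher, 428 lower), with 591 of the calls not tested there. Limma on log2(CPM + 1) gave 856 (397 higher, 459 lower) and on log2(CPM + 5) 345 (128 higher, 217 lower), and the share called higher was 37.1% on the second scale, against 48.6% with edgeR. A threshold of 2 log2 units gave 566 (325 higher, 241 lower). Leaving out each library in turn gave totals of 1285 to 1316, with 614 to 658 higher and 632 to 698 lower, and 1077 of the 1353 genes were called in every such fit. In each of these fits, 37 to 51 of the 1353 genes fell below the filter and were not tested. The replicate block gave 1357 (664 higher, 693 lower); the labels share only a number, and 1 of the 3 IL6Myc-3 libraries correlated best with its own number. Over 170 named genes and 2479 alternative values, 2385 kept direction and call, 91 lost the call (19 with limma on log2(CPM + 1), 48 on log2(CPM + 5)) and 3 changed sign: Cdkn2a without IL6Myc-3 replicate 3 (log2 difference -0.000559, leave-one-out range -0.000559 to 0.0712), RN18S without IL6Myc-3 replicate 2 (0.0278, range -0.716 to 0.0278) and Socs3 without IL6Myc-3 replicate 2 (0.0324, range -0.048 to 0.0324), none of them called. The cause was not tested. Not every named gene had a test in each fit. Of the 170, 166 were tested without an IL6Myc-3 library and 161 without an IL6Myc-4 library. With the 6 libraries alone 160 were tested, and with a filter of 5 CPM 148. Genes such as Cxcr3 and Gli3 passed the filter of 3 libraries through IL6Myc-4 alone. Their calls could therefore not be tested without an IL6Myc-4 library. Genes at few counts in 1 line limit the precision of the largest differences.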

Other observations

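The same kappa variable segment dominated both lines. Igkv4-68 took 99.8% of kappa V counts in IL6Myc-3 and 99.8% in IL6Myc-4, and 99.8% to 99.9% in the 3 other lines. Among heavy chain segments, Ighv11-2 took 91.5% ± 3.71 of V counts in IL6Myc-3 and 95.6% ± 0.663 in IL6Myc-4 (SD, n = 3), at 10.7 and 18.7 CPM. All heavy chain V segments together held only 959 counts in IL6Myc-3 and 1562 in IL6Myc-4. The constant gene Igha held 2104970 and 1434761, so these shares cannot be read as the heavy chain segment that the lines mainly expressed. Among lambda segments, Iglv1 took 94.6% ± 0.452 in IL6Myc-3 and 78.0% ± 0.611 in IL6Myc-4, at 134 and 29.7 CPM.

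Y-linked transcripts were present in both lines. Ddx3y was at 32.8 ± 0.724 CPM in IL6Myc-3, against 25.6 ± 1.77 CPM in IL6Myc-4, and Eif2s3y at 47.6 ± 1.41 CPM in IL6Myc-3, against 42.2 ± 2.59 CPM in IL6Myc-4, neither called. Both had 0 counts in IL6Myc-1 and IL6Myc-5.

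Over windows of 40 neighbouring tested genes, the window on chromosome 13 that runs along the genes Pgbd1 to H2bc3 had a median log2 difference of 0.57. It held 27 histone genes, and 10 of its 40 genes were called higher in IL6Myc-3 and 0 lower. On chromosome 14, the window that runs along the genes Ints6 to Slc39a14 had a median of -0.67, with 1 gene called higher and 12 lower. These windows were picked because their medians were the highest and the lowest of all windows. Many calls in the same direction follow from that choice and carry no test. Of all genes tested, 5.59% were called higher and 5.9% lower.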
